A study of Homo sapiens with 12 samples.

Results

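The miR-103 and miR-107 family comprises the mature arms that are cut from the miR-103a, miR-103b and miR-107 hairpins. Members were taken by name from the entries typed as mature miRNA in both deposited tables, and 2 were found, miR-103a-3p and miR-107, among 285 mature miRNAs without lipopolysaccharide (LPS) and 262 with LPS (314 names in all). miR-103b and the 5p arms of these hairpins were not listed. Small RNA had been sequenced from Mono Mac 6 (MM6) cells, a human monocytic cell line, to ask how loss of 5-lipoxygenase (5-LO) changes the miRNA profile. There were 4 groups of 3 libraries, 12 in all. The first group was wild-type MM6 and the second was MM6 with the 5-LO gene knocked out by CRISPR/Cas9, both without LPS. The other groups were wild-type and 5-LO knockout MM6 that received LPS, from the outer membrane of bacteria, at 1 µg/mL for 6 h. Before this, all 4 groups had been matured with TGF-β (1 ng/mL) plus calcitriol (50 nM), for 72 h per the sample labels and the study's account of this sequencing, while its general culture methods give a longer time. The knockout cells came from clones, and the clone behind each library is not named. The 5-LO mRNA is not among the small RNAs, so the genotype labels were not checked against it.

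miRNAs are short RNAs that Dicer cuts from hairpin precursors and that guide silencing of mRNAs through pairing of their seed, the bases near the 5′ end. miR-103 and miR-107 lie in introns of the pantothenate kinase genes PANK1, PANK2 and PANK3, whose enzymes start coenzyme A synthesis, and they are known to act on the mRNA of DICER1, the gene for Dicer. Dicer in turn is a binding partner of 5-LO.

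The members are shown first by sequence, because a single base separates them. The RefSeq sequences (table build GRCh38.p14) read 5′ to 3′, with the seed at bases 2 to 8 in capitals.
miR-103a-3p: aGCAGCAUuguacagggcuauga
miR-107: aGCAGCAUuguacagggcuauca
Both have 23 bases. The first 21 are identical and the only difference is G22C (miR-103a-3p as reference, positions counted from 1 at the 5′ end). Among 2370 mature human miRNAs in the RefSeq table, the seed GCAGCAU is held by these 2 alone, or 0.0844%. A read that ends before base 22 fits both members, and the rule for assigning such reads was not found in the sources used here.

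The 2 listed members come from 3 hairpin genes, shown here with the mature arm in capitals. MIR103A1 lies at chr5:167987901-167987978 on the reverse strand, MIR103A2 at chr20:3898141-3898218 on the forward strand and MIR107 at chr10:91352504-91352584 on the reverse strand (GRCh37).
MIR103A1: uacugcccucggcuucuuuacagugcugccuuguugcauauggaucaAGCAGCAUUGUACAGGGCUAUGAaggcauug
MIR103A2: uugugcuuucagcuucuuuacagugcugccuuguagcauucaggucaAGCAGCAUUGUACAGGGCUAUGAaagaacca
MIR107: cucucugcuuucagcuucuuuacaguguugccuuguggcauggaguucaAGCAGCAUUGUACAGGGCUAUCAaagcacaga
MIR103A1 sits in PANK3, MIR103A2 in PANK2 and MIR107 in PANK1, each on the strand of its host and each in intron 5 of a canonical transcript with 7 exons (GENCODE 44 mapped to GRCh37). The 2 miR-103a hairpins were identical at 63 of 78 aligned bases, and at 40 of 55 outside the mature arm. Their mature arm is the same, so a count of miR-103a-3p does not tell PANK2 from PANK3 as its source.

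The 3′ UTR of DICER1, on the reverse strand of chromosome 14, was searched on its own strand for ATGCTGC, the complement of the family's seed. It has 4270 bases and holds 5 matches, shown with the match in capitals and named by their first base in the UTR.
DICER1 UTR 1034: acacctaaaatATGCTGCagattttataa
DICER1 UTR 1635: tgcttcgtggaATGCTGCatttatatgta
DICER1 UTR 2839: cagtcctaactATGCTGCgttttataata
DICER1 UTR 4110: tttaccatcacATGCTGCagctgtttttt
DICER1 UTR 4162: atacagtaatcATGCTGCagaaatttgca
In that order the matches lie at chr14:95555795-95555801, chr14:95555194-95555200, chr14:95553990-95553996, chr14:95552719-95552725 and chr14:95552667-95552673 (GRCh37), and 4 of the 5 are followed by an A. Among 1873 canonical 3′ UTRs at least as long, 507 (27.1%) hold the motif in their first 4270 bases, and only DICER1 (0.0534%) holds as many as 5. A match is a description of the sequence, and DICER1 mRNA and protein were not analysed here.

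The deposited values are the authors' mean normalized count of each genotype over 3 libraries, without the values of single libraries, so there is no SD and no test between genotypes was fitted here. Each mean is given with a 95% counting interval, which covers the sampling of reads only. The table without LPS and the table with LPS were normalized separately. Summed over all noncoding RNAs, the means came to 10757419 in wild-type and 12142907 in knockout cells without LPS, and to 9680900 and 10165615 with LPS.

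miR-103a-3p was the abundant member in all 4 groups. Its mean without LPS was 481 for wild type (457.6 to 507) and 433 for the knockout (409 to 458). With LPS it was 386 for wild type (364 to 409) and 258 for the knockout (239.6 to 277). From the estimated depth, these means rest on about 1516, 1301, 1333 and 759.5 reads. The knockout value was the lower one in each table, and the intervals of the genotypes barely overlapped without LPS and were far apart with LPS.

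miR-107 was the rarer member. Its mean without LPS was 52.3 for wild type (44.8 to 61.0) and 41.6 for the knockout (34.7 to 49.8). With LPS it was 36.9 for wild type (30.6 to 44.5) and 24.7 for the knockout (19.5 to 31.2). These means rest on about 165, 125, 128 and 72.8 reads. The knockout value was again the lower one in each table, with overlapping intervals of the single means.

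**Figure D1:**
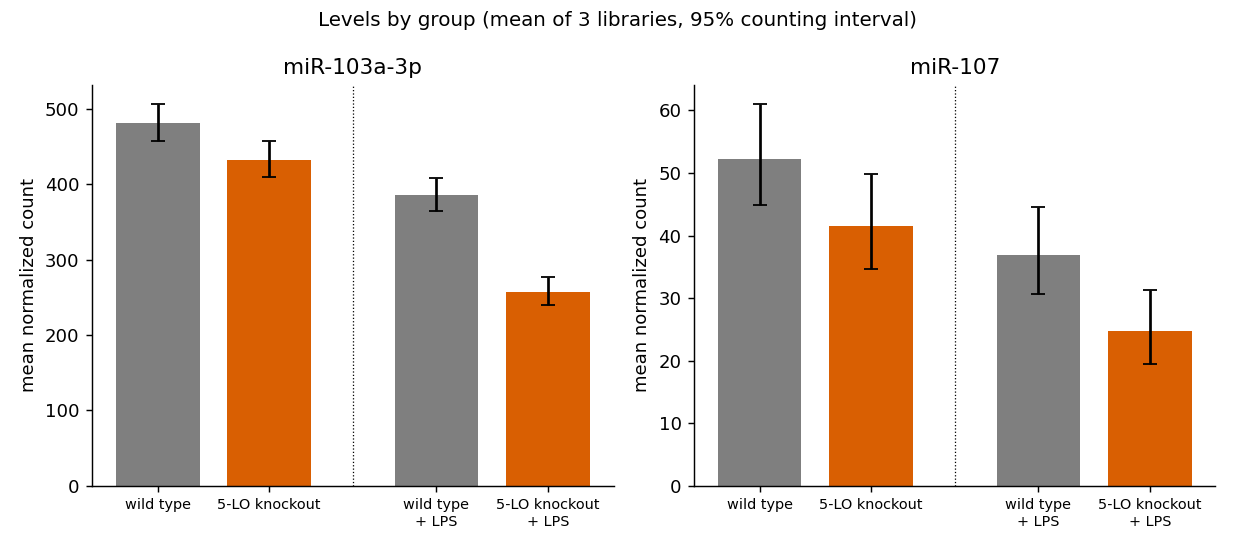
Mean normalized count (y axis, from 0) of miR-103a-3p and miR-107 in the 4 groups, each bar the authors' mean of 3 libraries with its 95% counting interval; the dotted line separates tables that were normalized separately. The lowest bar of each member is the knockout with LPS, 258 for miR-103a-3p and 24.7 for miR-107.

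Without LPS, the 2 members together held 0.521% of the summed mature miRNA means for wild type and 0.418% for the knockout. With LPS they held 0.453% and 0.256%. In the order of mature miRNAs from the highest mean, miR-103a-3p was at place 24 in wild-type and 28 in knockout cells without LPS, and at 25 and 34 with LPS. miR-107 was at place 69 and 79 without LPS, and at 77 and 85 with LPS. The neighbours of miR-103a-3p were miR-19b-3p (497) and miR-3653 (479) in wild-type cells without LPS, and miR-222-3p (266) and miR-146b-3p (243) in knockout cells with LPS. In the other groups they were miR-196b-5p (440.2) and miR-26a-5p (425) in knockout cells without LPS, and miR-93-5p (406) and miR-181b-5p (385) in wild-type cells with LPS. miR-107 stood between miR-18a-3p (57.4) and miR-28-3p (52.2) in wild-type cells without LPS, and between miR-92b-3p (25.1) and miR-125a-5p (24.0) in knockout cells with LPS. It stood between miR-9-5p (42.3) and miR-152 (38.8) in knockout cells without LPS, and between miR-7-5p (37.8) and miR-18a-3p (35.2) in wild-type cells with LPS. For all 16 pairs of a member and its neighbour, the counting interval of the log2 ratio held 0, so none of these neighbouring places can be told apart by counting error.

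Without LPS, both members were lower in the knockout, by little. miR-103a-3p stood at 89.9% of wild type, a log2 ratio of -0.15 (95% counting interval -0.26 to -0.044). miR-107 stood at 79.5% of wild type, a log2 ratio of -0.33 whose interval, -0.67 to 0.012, held 0. None of the 2 members was lower by 1.5-fold or more, against 5 of 111 mature miRNAs with an average mean of at least 10 (4.50%), while 26 (23.4%) were higher by that fold. On the means as deposited, 37 of the 111 mature miRNAs (33.3%) were below 0 like the family, and the median log2 ratio was 0.17. Under equal sums of all noncoding RNAs, equal sums of mature miRNAs and equal medians, 56 (50.5%), 52 (46.8%) and 55 (49.5%) were below 0. Relative to that median, miR-103a-3p was at -0.33 and miR-107 at -0.51, places 21 and 15 from the lowest ratio.

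With LPS, both members stood at 66.8% of wild type. The log2 ratio was -0.58 for each, with an interval of -0.72 to -0.45 for miR-103a-3p and of -1.01 to -0.15 for miR-107. Both intervals lay below 0. The 2 values may not be separate measurements, because reads that end before base 22 fit both members. On the means as deposited, none of the 2 members reached 1.5-fold, since both were 1.497-fold lower, against 5 of 108 mature miRNAs lower by that fold (4.63%) and 20 higher (18.5%). Those 5 were miR-99b-5p, let-7e-5p, miR-125a-5p, miR-454-3p and miR-146a-3p, named after their values were seen, and miR-103a-3p and miR-107 came next, at places 6 and 7. The median of the 108 was 0.14, and both members were at -0.73 relative to it. Of the 108, 41 (38.0%) were below 0 as deposited, and 43 (39.8%), 57 (52.8%) and 54 (50.0%) under equal sums of all noncoding RNAs, equal sums of mature miRNAs and equal medians.

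**Figure D2:**
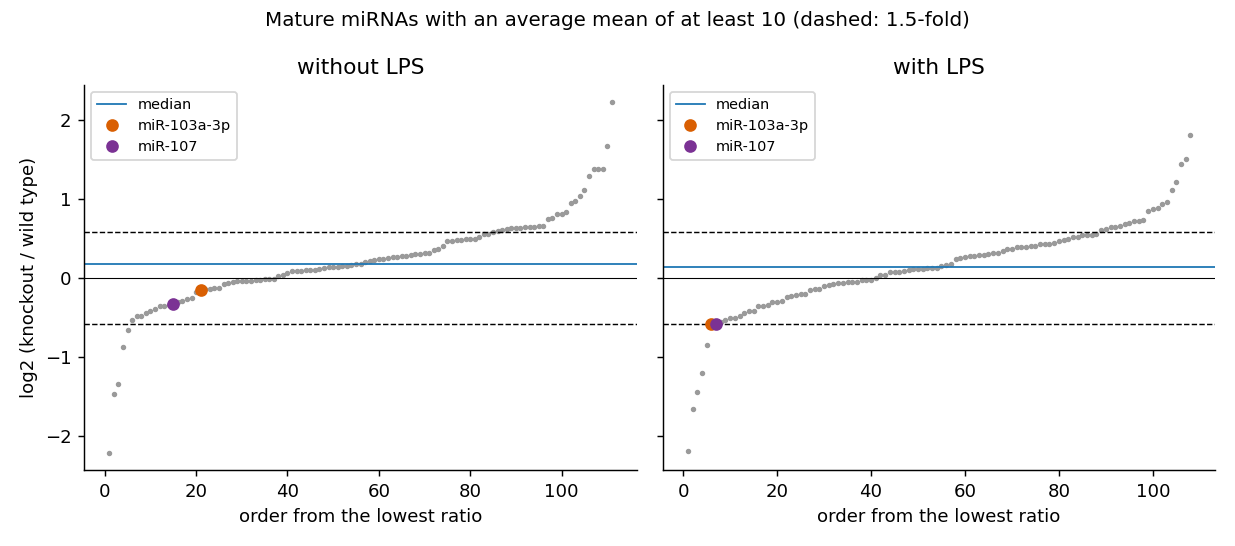
log2 ratio of knockout to wild type (y axis) of the mature miRNAs with an average mean of at least 10, in order from the lowest (x axis), without LPS (111) and with LPS (108); dashed lines mark 1.5-fold and the blue line the median. miR-103a-3p and miR-107 are at places 21 and 15 without LPS and next to each other at places 6 and 7 with LPS.

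The side of the 1.5-fold line depended on the scaling. The direction could not change, because each of the 3 other scalings moved all ratios down in both tables. Equal sums over all noncoding RNAs moved all ratios by -0.17 without LPS and -0.070 with LPS, equal sums over mature miRNAs by -0.15 and -0.24, and equal medians by -0.17 and -0.15. With LPS, both members were past 1.5-fold lower under each of these, at -0.65, -0.83 and -0.74 for miR-103a-3p and at -0.65, -0.82 and -0.74 for miR-107. The mature miRNAs lower by that fold then numbered 9 (8.33%), 17 (15.7%) and 13 (12.0%) of 108, against 15 (13.9%), 10 (9.26%) and 10 (9.26%) higher. Without LPS, no member was past 1.5-fold under any of the 3, with miR-103a-3p from -0.33 to -0.30 and miR-107 from -0.51 to -0.48. The interval of miR-107 without LPS, which held 0 on the means as deposited, lay below 0 under each of the 3 (-0.85 to -0.16, -0.82 to -0.13 and -0.85 to -0.16). There, 10, 9 and 9 of 111 were lower (9.01%, 8.11% and 8.11%) and 14, 15 and 14 higher (12.6%, 13.5% and 12.6%).

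**Figure D3:**
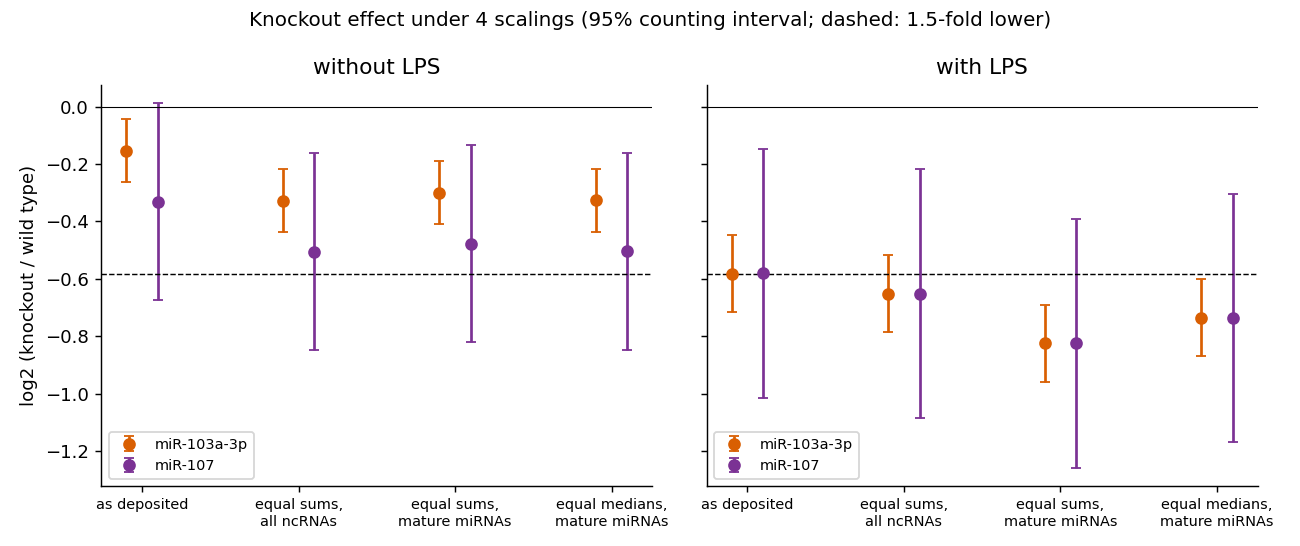
log2 ratio of knockout to wild type (y axis) of miR-103a-3p and miR-107 on the means as deposited and under 3 other scalings (x axis), without and with LPS, with 95% counting intervals; the dashed line marks 1.5-fold lower. All points lie below 0, and with LPS those of the 3 other scalings lie below the dashed line.

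The counting intervals are narrower than the full error. Reads of single libraries could be solved for low means, and over mature miRNAs with means from 2 to 10 the variance between libraries averaged 1.64 times the counting variance in wild-type and 1.62 times in knockout cells without LPS (48 miRNAs each), and 2.00 and 1.85 times with LPS (49 and 47 miRNAs). These ratios hold for means from 2 to 10 and do not carry over to the higher means of the members, where the excess may be larger. At the level of miR-103a-3p this spread could not be measured. Whether its knockout effect exceeds the spread between replicates was therefore not tested here, and the authors' own p-values were not used. For miR-107 in knockout cells with LPS, 1 set of whole reads fitted the mean, 30, 22 and 20, or 23.1, 26.3 and 24.6 once divided by the size factors. Whole reads also came out for 72.0% of 100 values within 0.05 of that mean, so this set rests on weak evidence. In the other groups more than 1 set fitted, 3 for wild type with LPS, and 5 for wild type and 2 for the knockout without LPS, and whole reads came out for 86.0%, 100.0% and 99.0% of such nearby values.

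The difference between the knockout effects, with LPS minus without, was -0.43 for miR-103a-3p (95% counting interval -0.60 to -0.26) and -0.25 for miR-107 (-0.80 to 0.30). The interval of miR-107 held 0. Neither interval covers the spread between replicates, and the tables were normalized separately. Set side by side across the tables, the miR-103a-3p mean with LPS was 80.1% of that without in wild-type and 59.5% in knockout cells, and the miR-107 mean was 70.6% and 59.4%. These percentages carry any difference between the normalizations. On the log2 scale, the change of miR-103a-3p was -0.32 for wild type and -0.75 for the knockout as deposited, -0.18 and -0.71 as a share of mature miRNAs, and -0.17 and -0.49 as a share of all noncoding RNAs. For miR-107 it was -0.50 and -0.75 as deposited, -0.37 and -0.71 as a share of mature miRNAs, and -0.35 and -0.50 as a share of all noncoding RNAs.

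The proportion between the members does not depend on a table's scaling. miR-107 was 10.9% of miR-103a-3p in wild-type cells without LPS (95% counting interval 9.23% to 12.8%) and 9.60% in knockout cells (7.94% to 11.6%). With LPS it was 9.58% in both genotypes (7.88% to 11.6% in wild type and 7.49% to 12.3% in the knockout). The 4 intervals overlapped. The log2 ratio of the members differed between knockout and wild type by -0.18 without LPS (-0.54 to 0.18) and by 0.00021 with LPS (-0.45 to 0.45), so a change in proportion was not detectable at this depth. Reads that end before base 22 fit both members and their assignment is not known. The proportion may therefore carry shared reads, which was not tested.

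The tables also list the hairpins as precursor entries, which count reads of the mature arms again. mir-103a-1 had means of 242 in wild-type and 216 in knockout cells without LPS, and of 193 and 129 with LPS. mir-103a-2 had 243 and 219.6 without LPS, and 193 and 129.7 with LPS. The mir-103a-1 share of their sum was between 49.6% and 50.0% in the 4 groups, and the sum exceeded miR-103a-3p by 3.97, 3.04, 1.09 and 0.626. An even split of this kind between genes with the same mature arm carries no information on which host gene was active, because the rule for reads that fit both is not stated in these sources. The mir-107 entry equalled miR-107 in every group.

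The mature miRNAs with the most similar pair of knockout effects were found by the Euclidean distance between log2 ratios over both tables, among 61 mature miRNAs with means of at least 50 in all 4 groups. miR-148b-3p was nearest to miR-103a-3p, at a distance of 0.13, with log2 ratios of -0.26 without and -0.50 with LPS. It was followed by miR-196b-5p (0.26), miR-18a-5p (0.26), miR-664a-3p (0.33) and miR-17-5p (0.35). miR-107, itself under 50 in some groups, lay 0.18 from miR-103a-3p. Nearest to miR-107 were miR-18a-5p (0.097), miR-148b-3p (0.11), miR-664a-3p (0.16), miR-196b-5p (0.17) and miR-103a-3p (0.18). On the means as deposited, 10 of the 61 (16.4%) were below 0 in both tables, miR-103a-3p among them. The other scalings shift all ratios by -0.17 to -0.15 without LPS and by -0.24 to -0.070 with LPS. Under each, more of the 61 would be below 0 in both tables, such as miR-148a-3p (0.024 without and -0.052 with LPS as deposited). The difference between the effects of miR-103a-3p was at place 5 from the lowest of the 61, whose median was -0.076 as deposited.

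**Figure D4:**
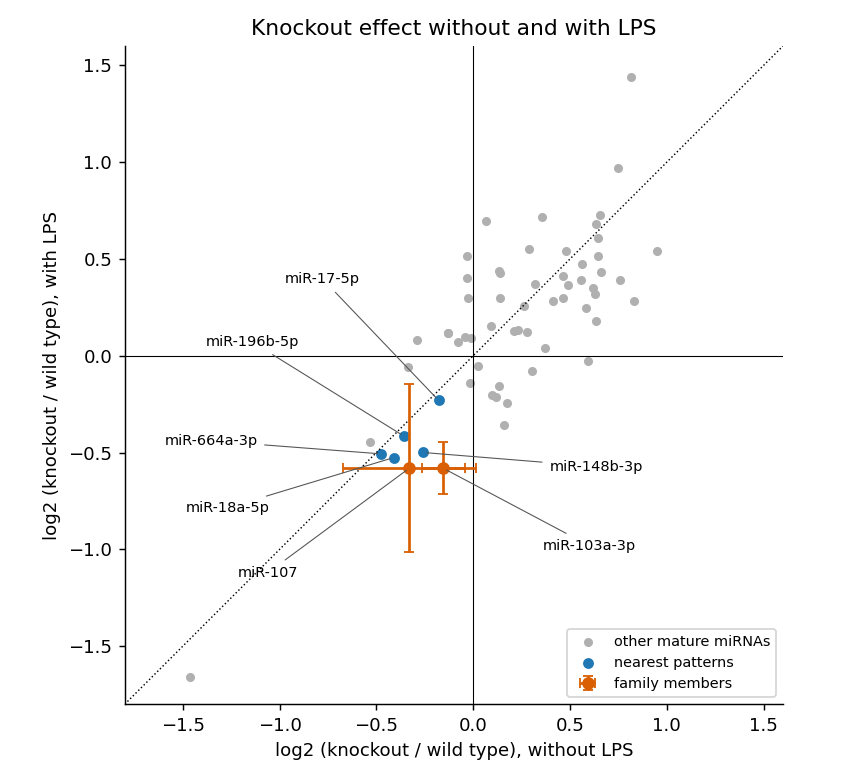
log2 ratio of knockout to wild type without LPS (x axis) and with LPS (y axis) for the 61 mature miRNAs with means of at least 50 in all 4 groups and for miR-107; bars are 95% counting intervals and the dotted line marks equal effects. Both members lie at -0.58 on the y axis, with miR-148b-3p, miR-18a-5p, miR-664a-3p and miR-196b-5p close by.

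The family belongs to a wider set, the miR-15 and miR-107 group, whose guide strands share AGCAGC within their first 8 bases. In miR-16-5p and miR-15b-5p that stretch begins 1 base later than in the family, so their seed differs (bases 2 to 8 in capitals).
miR-16-5p: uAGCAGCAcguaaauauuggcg
miR-15b-5p: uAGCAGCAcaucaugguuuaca
In the RefSeq table, 13 of 2370 mature miRNAs (0.549%) hold AGCAGC there. miR-16-5p, known for repressing cell cycle genes, was the most abundant of the listed ones, with means of 1060 in wild-type and 1038 in knockout cells without LPS, and of 829.6 and 1095 with LPS. Its log2 ratio was -0.030 without LPS (95% counting interval -0.10 to 0.042) and 0.40 with LPS (0.32 to 0.48), so with LPS the means of miR-16-5p and miR-103a-3p lay on opposite sides of wild type. Under equal sums of all noncoding RNAs, equal sums of mature miRNAs and equal medians, the value of miR-16-5p with LPS was 0.33, 0.16 and 0.25, all above 0. Without LPS it was -0.21, -0.18 and -0.20, with intervals below 0, whereas that of the means as deposited held 0. The ratio of miR-16-5p to miR-103a-3p, which no scaling alters, was 2.20 for wild type and 2.40 for the knockout without LPS, and 2.15 and 4.25 with LPS. On the log2 scale this ratio differed between knockout and wild type by 0.12 without LPS (-0.0074 to 0.25) and by 0.98 with LPS (0.83 to 1.14), beyond counting error only with LPS. The family made up 31.7% of the summed means of the group's guide strands in wild-type and 30.1% in knockout cells without LPS, and 32.1% and 19.6% with LPS.

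**Figure D5:**
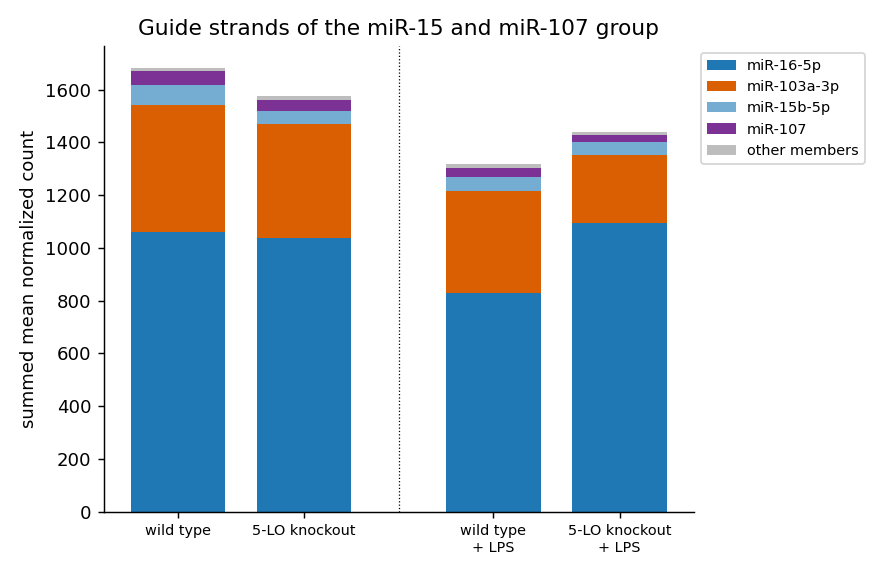
Summed mean normalized count (y axis, from 0) of the listed guide strands of the miR-15 and miR-107 group in the 4 groups, stacked by miRNA; the dotted line separates tables that were normalized separately. The miR-103a-3p segment of the knockout with LPS (258) is the lowest of the 4, beside a miR-16-5p segment of 1095.

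Besides the 2 members, 8 of the 13 names were on the list used here, without miR-4524a-5p, miR-4524b-5p and miR-6838-5p, which were not analysed. Of the 8, 6 were listed in each table and 3 had an average mean of at least 10. On the means as deposited, 1 of these 3 was lower by 1.5-fold without LPS (4.50% of all tested) and 0 with LPS (4.63%). Their median log2 ratio was -0.030 and -0.085. Under equal sums of mature miRNAs, which shift ratios with LPS by -0.24, miR-15a-5p (-0.36 as deposited) would pass 1.5-fold lower. Of all tested, 15.7% were lower there. miR-15b-5p had means of 76.1 and 48.4 in wild-type and knockout cells without LPS, a log2 ratio of -0.65 (-0.96 to -0.35), and of 51.9 and 49.0 with LPS, -0.085 (-0.42 to 0.25). miR-15a-5p had 10.4 and 11.7 without LPS and 11.4 and 8.89 with LPS, with intervals that held 0. miR-195-5p, miR-424-5p, miR-497-5p and miR-503-5p had means under 2 or were listed at 0.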

How the data were processed

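Small RNA libraries of MM6 cells (12 libraries, 3 in each of 4 groups) were grouped by the genotype and LPS of their labels. The authors trimmed adapters, annotated the reads against hg19 with the web tool omiRas, normalized them and averaged the 3 libraries of a genotype. The deposited signal is therefore 1 mean normalized count per genotype in each of 2 tables, one without and one with LPS. No source used here gives the omiRas version, aligner or scaling. The tables also hold the authors' log2 fold changes, p-values and false discovery rates, which were not used.

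Members and lists were chosen with earlier results of these data known. The named miRNAs were the family and its precursor entries, the guide strands of the miR-15 and miR-107 group, the 5 nearest patterns of each member, the neighbours in level order, let-7a-5p, a list of miRNAs in introns of host genes and 3 myeloid miRNAs. A test on counts of single libraries had been planned, but means allow none, so log2 ratios of means with no pseudocount are given, and mature miRNAs with an average mean of at least 10 served as background at 1.5-fold.

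Size factors were solved from means of at most 10, which are sums of whole reads divided by 3 size factors. Without LPS, wild type had size factors of 1.25, 1.02 and 0.883 and the knockout of 1.34, 0.945 and 0.725. With LPS, wild type had 1.72, 1.07 and 0.665 and the knockout 1.30, 0.835 and 0.812. All such means were matched in exactly 1 way, within the rounding of 6 digits. Intervals assume Poisson reads in each library and cover counting error only. They were tested on data simulated with Poisson reads and no further spread between libraries, so that test does not cover such spread. The variance between libraries at low means and the sets of whole reads were examined after the data were seen. Sequences came from RefSeq (GRCh38.p14), and positions, introns and UTRs from GRCh37 with GENCODE 44, with hairpins matched to that genome by sequence. Of 285 and 262 mature names, 238 and 219 were in the RefSeq table. Alternatives were 3 scalings, pseudocounts of 1 and 10, precursor entries, minimum means of 50 or none, a fold of 2, leaving out libraries and leaving out the arms of miR-3607, whose gene is annotated as a snoRNA (other entries that may come from snoRNAs stayed in). Python 3.11.15, numpy 2.4.6, pandas 2.3.3 and matplotlib 3.10.9 were used.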

Additional observations from a re-analysis of the deposited data

How the results depend on the processing

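All 31 values of the knockout effect of miR-103a-3p and miR-107, with and without LPS, were below 0, from -0.83 to -0.15 over the settings tried. Most of these settings could not have changed the sign. The 3 scalings move every ratio down, a pseudocount only moves a ratio toward 0, and the mir-107 precursor entry equals miR-107. For miR-103a-3p, equal sums of all noncoding RNAs, equal sums of mature miRNAs and equal medians moved the effect without LPS from -0.15 to -0.33, -0.30 and -0.33, and the last 2 moved the effect with LPS from -0.58 to -0.83 and -0.74. These shifts come from the scaling itself, which moves all ratios of a table alike. The other 22 of 27 alternatives moved the effects by less than their counting interval. Leaving out 1 knockout library with LPS put miR-107 between -0.63 and -0.54, from a set of reads that rests on weak evidence, and could not be done for miR-103a-3p or the other groups, whose reads fitted more than 1 set. A pseudocount of 10 moved the log2 ratio of miR-107 to miR-103a-3p from -3.38 to -3.10 in the knockout without LPS, from -3.38 to -3.08 in wild type with LPS and from -3.38 to -2.95 in the knockout with LPS. The 6 alternatives for the difference between effects moved it by less than its counting interval. It ranged from -0.52 to -0.32 for miR-103a-3p and from -0.35 to -0.15 for miR-107. Leaving out the 2 arms of miR-3607, whose gene is annotated as a snoRNA, moved each of the 8 places in the order up by 2.

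The number of mature miRNAs lower by 1.5-fold without LPS, 5, became 2 at a minimum of 50, 38 with no minimum, 3 at a fold of 2, 10 with equal sums of all noncoding RNAs and 9 with equal sums of mature miRNAs. The number higher, 26, became 17, 51, 8, 14 and 15 in that order. With LPS, the number lower, 5, became 1 at a minimum of 50, 33 with no minimum, 9 with equal sums of all noncoding RNAs and 17 with equal sums of mature miRNAs. The number higher, 20, became 13, 42, 5 (fold of 2) and 10 (equal sums of mature miRNAs).

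No paired analysis was possible because the columns are group means that carry no replicate number. A test on single libraries was not run for the same reason. Of the 2 members, miR-107 is the one with less depth, at 72.8 to 165 reads a group.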

Other observations

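Like the family, other miRNAs lie in introns of protein-coding genes. Of 18 such arms on the comparison list, 13 were listed in each table and 11 had an average mean of at least 10. On the means as deposited without LPS, 0 of these 11 were lower and 4 higher in the knockout by 1.5-fold or more. Over all 111 mature miRNAs, 4.50% were lower and 23.4% higher. The median log2 ratio of the 11 was 0.46, against 0.17. The 3 other scalings shift all ratios without LPS by -0.17 to -0.15. Under each, miR-30e-5p (0.62) and miR-140-5p (0.61) would fall within 1.5-fold. With LPS, also as deposited, 0 were lower and 1 higher, against 4.63% and 18.5% over 108. The median was -0.054, against 0.14. The 3 other scalings shift all ratios with LPS by -0.24 to -0.070. Under each, miR-140-5p (-0.56) would pass 1.5-fold lower and miR-30e-3p (0.65) would fall within 1.5-fold. miR-148b-3p (-0.50) would pass under equal sums of mature miRNAs and equal medians. The shares lower over the 108 were then 8.33%, 15.7% and 12.0%. Among the 11, the lowest without LPS was miR-148b-3p at -0.26, and the lowest with LPS was miR-140-5p at -0.56 (95% counting interval -1.27 to 0.16). The other arm of that hairpin, miR-140-3p, was at 0.54 with LPS (0.29 to 0.79). miR-25-3p, from an intron of MCM7, was at 0.76 without LPS (0.65 to 0.87) and 0.39 with LPS (0.26 to 0.53).

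let-7a-5p, named in the study as acting on the DICER1 transcript, was on the other side of wild type from the family. Its means were 3886 and 6075 in wild-type and knockout cells without LPS, and 3329 and 5074 with LPS, log2 ratios of 0.64 and 0.61, larger than any of the scaling shifts. The myeloid miRNAs miR-223-3p, miR-142-5p and miR-142-3p were present in all 4 groups. In wild-type cells without LPS their means were 93.8, 323 and 97.9. The log2 ratio of knockout to wild type was -0.34 for miR-223-3p without LPS (95% counting interval -0.59 to -0.080) and -0.059 with LPS (-0.36 to 0.25). For miR-142-5p it was 0.29 without LPS (0.16 to 0.41) and 0.55 with LPS (0.42 to 0.69), and for miR-142-3p both intervals held 0. These values are as deposited. Under equal sums of all noncoding RNAs and equal medians, which shift ratios without LPS by -0.17, the interval of miR-142-5p without LPS would hold 0. The part of these myeloid miRNAs in the values of the family was not tested.

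Reads of the rare guide strands of the miR-15 and miR-107 group were solved per library. miR-195-5p had 4 reads over the 3 wild-type libraries and 2 over the knockout libraries without LPS, and 4 in wild type with LPS, where the knockout was listed at 0. miR-497-5p had 4 reads in the knockout without LPS and miR-503-5p had 2 in the knockout of each table, with wild type listed at 0. miR-424-5p had 2 reads in wild-type and 6 in knockout libraries with LPS.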
